A study of Homo sapiens with 6 samples.

Results

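The genes examined here are 10 members of the BCL2 family, which controls the mitochondrial step of apoptosis. They were taken by gene symbol from a fixed list of the pro-survival genes BCL2, BCL2L1 and MCL1, the BH3-only genes BCL2L11, BMF, BBC3, PMAIP1, BID and BAD, and the effector BAK1. Of the 10, 9 were listed among the 16305 genes measured; BCL2 was not, and it was not analysed here. Huh7SR cells, a sorafenib-resistant derivative of the hepatocellular carcinoma line Huh7, were treated for 24 h with fostamatinib at 2 µM, an inhibitor of spleen tyrosine kinase, or with the solvent DMSO, for which the labels also give 2 µM. The study reports that spleen tyrosine kinase protein was not detected in Huh7 cells. Each condition had 3 samples (replicates 1 to 3), and polyA-selected RNA was sequenced. The cells of both groups had been selected by long-term exposure to sorafenib, and the study's methods state that sorafenib was withdrawn from the medium for some days before experiments. The methods call the resistant cells used for RNA-seq a pool (Huh7-R), not the clone of the same study. Whether the samples of a group came from separate cultures is not stated, so the p-values may reflect technical spread alone.

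Proteins of the BCL2 family decide whether the outer mitochondrial membrane is opened. The pro-survival proteins BCL2, BCL-XL (from BCL2L1) and MCL1 hold the effectors BAK and BAX in check, and BH3-only proteins either occupy the pro-survival proteins or engage the effectors directly. In epithelial cells BIM (from BCL2L11) and BMF are known to be restrained by growth factor signalling through ERK, and hepatocytes depend on MCL1 and BCL-XL for survival. RNA of a gene is not the amount of its protein: MCL1 and BIM proteins turn over quickly and are set by degradation as well, and BAD is switched by phosphorylation. The counts are per gene, so the isoforms of BCL2L1, MCL1 and BCL2L11 are added together.

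The feature that the 10 genes share is the BH3 motif. In the BH3-only proteins and the effectors it forms a short helix that fits into the groove of the pro-survival proteins. A search of the reference coding sequences for a leucine followed by any 3 residues, then glycine, alanine or serine, and then aspartate, found 1 match in each of 9 of the 10 proteins and 2 in BID. The coding stretches around the match are shown for the 5 genes on which the results turn most, the pair of pro-survival genes that fell and the BH3-only genes that rose. Capitals mark the codons of the pattern, with 5 codons on either side in lower case, read 5′ to 3′ on the coding strand of GRCh37 (the same build as hg19).
MCL1, chr1:150551338-150551385, - strand: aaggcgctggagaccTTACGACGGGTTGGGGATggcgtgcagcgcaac
BCL2L1, chr20:30309722-30309769, - strand: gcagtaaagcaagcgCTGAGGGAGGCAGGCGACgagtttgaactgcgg
BCL2L11, chr2:111907665-111907712, + strand: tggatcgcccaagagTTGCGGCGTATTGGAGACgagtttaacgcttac
BMF, chr15:40396393-40396440, - strand: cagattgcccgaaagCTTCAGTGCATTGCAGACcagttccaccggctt
BAD, chr11:64039091-64039138, - strand: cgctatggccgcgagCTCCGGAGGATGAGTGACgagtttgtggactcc
Each stretch lies within 1 coding exon. The pattern begins at codon 213 of the 350 codons of MCL1, at codon 90 of 233 in BCL2L1, at codon 152 of 198 in BCL2L11, at codon 137 of 184 in BMF and at codon 114 of 168 in BAD. In the pro-survival genes it is therefore followed by a longer coding stretch than in the 3 BH3-only genes.

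After fostamatinib, the measured pro-survival genes were lower and 3 of the 6 BH3-only genes were higher. MCL1 fell by 40.8% and BCL2L1 by 38.9%, while BCL2L11 rose by 50.4%, BMF by 26.4% and BAD by 26.5%. BID, BBC3 and the effector BAK1 fell by 18.7%, 18.8% and 12.7%. In all, 8 of the 9 measured members were called changed (adjusted p-value under 0.05 in limma's linear model, with Benjamini-Hochberg adjustment over 16305 genes), against 47.8% of all genes. Higher were 3 of the 9, against 23.3% of all genes, and lower were 5 of the 9, against 24.5%. The 8 members that were called had means of 202 to 6723 reads in each group, and genes with many reads were called more often. Among the 8724 genes averaging 200 reads or more, a limit chosen after the values were seen, 63.2% were called, 29.3% higher and 33.8% lower. None of the called members changed more than 2-fold, while 1163 of all genes were called with a change of that size. The median absolute log2 fold change was 0.34 for the members, 0.27 for all genes and 0.20 for the genes averaging 200 reads or more.

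**Figure D1:**
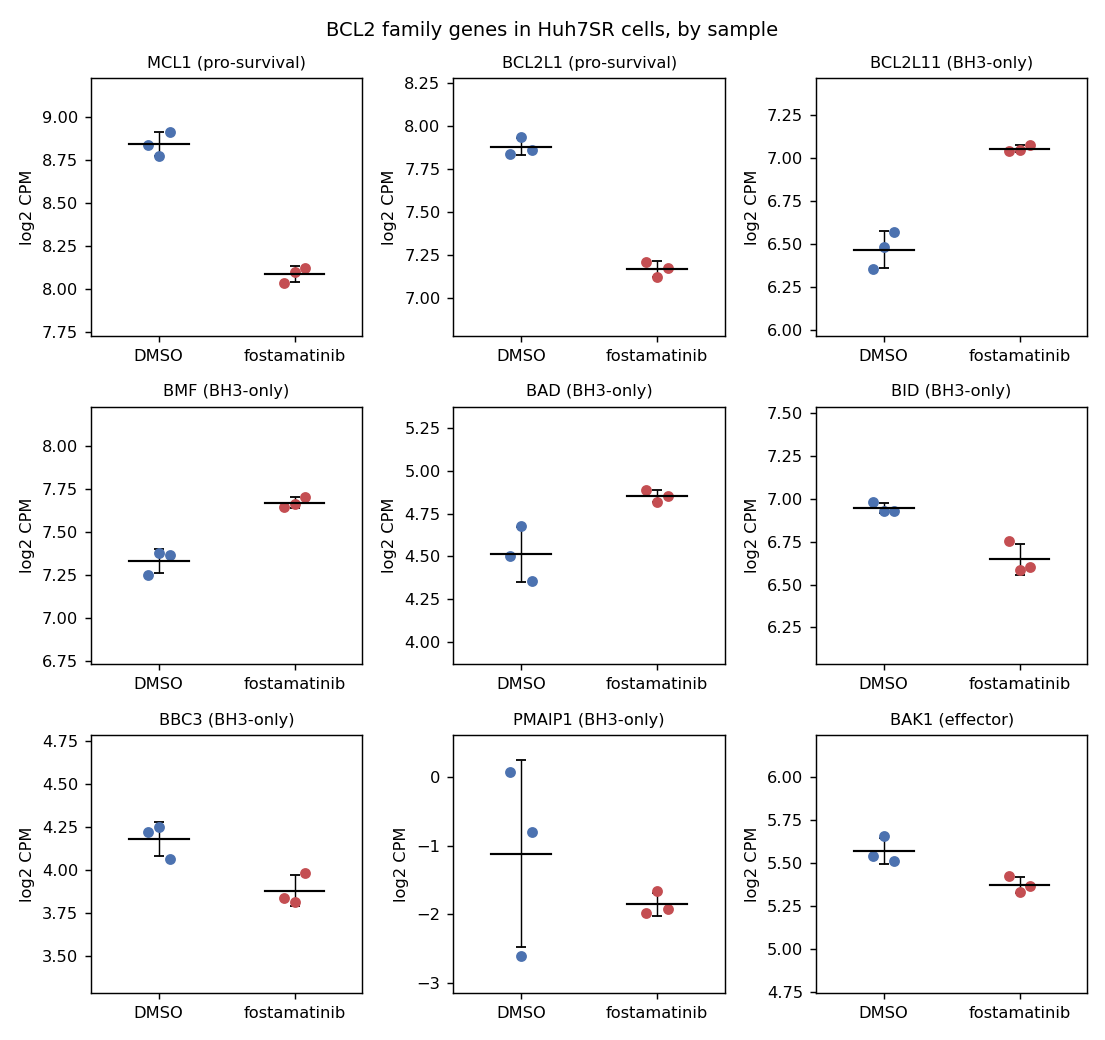
Expression of the 9 measured BCL2 family genes in each sample. The y axis is log2 CPM (read counts scaled to library size, on a log2 scale), points are samples, horizontal lines are means and error bars are SD (n = 3 per group); the y axes differ in position, and that of PMAIP1 also in span. The fostamatinib samples of MCL1 and BCL2L1 lie below all DMSO samples and those of BCL2L11, BMF and BAD above them, while the PMAIP1 samples overlap.

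Among the pro-survival genes, MCL1 (ENSG00000143384, chromosome 1 of GRCh37, 150533371 to 150552214, - strand) had 8.84, 8.78 and 8.92 log2 CPM under DMSO and 8.04, 8.10 and 8.12 after fostamatinib. The lowest DMSO sample lay 0.65 above the highest fostamatinib sample, more than any difference within a group. The log2 fold change was -0.76 (SE 0.039, adjusted p = 6.10e-18, limma), from a mean of 6723 reads to 3739 reads. This change exceeded in size that of 85.3% of all genes.

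BCL2L1 (ENSG00000171552, chromosome 20, 30252255 to 30311792, - strand), which encodes BCL-XL, had 7.84, 7.94 and 7.86 log2 CPM under DMSO and 7.21, 7.12 and 7.18 after fostamatinib. The groups were again well apart, with a gap of 0.63. BCL2L1 thus changed by -0.71 in log2 units (SE 0.042, adjusted p = 2.33e-16, limma), close to that of MCL1. The ratio of MCL1 to BCL2L1 per kilobase was 1.27 ± 0.095 (SD, n = 3) under DMSO and 1.23 ± 0.069 (SD, n = 3) after fostamatinib, and the samples of the groups overlapped.

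Of the BH3-only genes, BCL2L11 (ENSG00000153094, chromosome 2, 111876955 to 111926021, + strand), which encodes BIM, had the largest called rise. It had 6.35, 6.48 and 6.57 log2 CPM under DMSO and 7.04, 7.05 and 7.08 after fostamatinib. The fostamatinib samples lay close together, with an SD of 0.018 against 0.11 under DMSO, and the groups did not overlap. BCL2L11 was higher by 0.59 in log2 units (95% confidence interval 0.49 to 0.69, adjusted p = 3.36e-12, limma). Exons of the non-coding gene MIR4435-2HG overlap those of BCL2L11 on the opposite strand. Its reads were 626, 699 and 698 under DMSO and 216, 206 and 208 after treatment, a log2 fold change of -1.59 (adjusted p = 1.49e-19, limma), opposite in direction to BCL2L11. The library kit keeps strand, but the strand setting of the counting is not given in the sources used here, so reads of such overlaps may be assigned or dropped in ways that were not tested.

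BMF (ENSG00000104081, chromosome 15, 40380091 to 40401093, - strand), a BH3-only gene whose protein binds the dynein light chain DYNLL2, had 7.25, 7.38 and 7.37 log2 CPM under DMSO. After fostamatinib it had 7.65, 7.66 and 7.71, so that the lowest treated sample was 0.26 above the highest DMSO sample. BMF was higher by 0.34 in log2 units (SE 0.043, adjusted p = 3.16e-08, limma).

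BAD (ENSG00000002330, chromosome 11, 64037302 to 64052176, - strand), whose protein binds BCL-XL and BCL2, had 312, 390 and 304 reads under DMSO and 406, 402 and 382 after fostamatinib. On the log2 CPM scale the groups lay 0.14 apart, less than the SD of 0.16 among the DMSO samples. BAD was higher by 0.34 in log2 units (95% confidence interval 0.18 to 0.50, adjusted p = 4.75e-04, limma). Exons of GPR137 overlap those of BAD on the opposite strand. For GPR137 the reads were 330, 377 and 317 under DMSO and 388, 389 and 363 after treatment, with a log2 fold change of 0.25 (adjusted p = 6.78e-03, limma), so the pair of genes had similar counts and moved in the same direction.

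The remaining BH3-only genes were lower or too sparse to call. BID (ENSG00000015475, chromosome 22, 18216904 to 18257536, - strand), which caspase-8 cleaves to link death receptors to mitochondria, had 6.98, 6.93 and 6.93 log2 CPM under DMSO and 6.75, 6.59 and 6.60 after fostamatinib. The change was -0.30 in log2 units (SE 0.048, adjusted p = 3.07e-06, limma), without overlap of the groups. BBC3 (ENSG00000105327, chromosome 19, 47724079 to 47736023, - strand), which encodes the p53 target PUMA, had 4.22, 4.25 and 4.06 log2 CPM under DMSO and 3.84, 3.81 and 3.98 after fostamatinib. The groups of BBC3 were separated by 0.081 only, and the log2 fold change of -0.30 had a 95% confidence interval of -0.48 to -0.12 (adjusted p = 6.29e-03, limma).

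PMAIP1 (ENSG00000141682, chromosome 18, 57567228 to 57571537, + strand), which encodes NOXA, a partner of MCL1, was nearly undetected. It had 14, 2 and 8 reads under DMSO and 3, 4 and 3 after fostamatinib, and the groups overlapped. Only the DMSO group met the authors' minimum of 5 reads in 2 samples, so PMAIP1 was tested only through the group with more reads. The PMAIP1 change of -0.74 in log2 units had a 95% confidence interval of -1.97 to 0.49 (adjusted p = 0.333, limma), so a fall or a rise was not detectable at this depth. Without the second DMSO sample the log2 fold change was -1.49 (adjusted p = 0.0321, limma). Over the 7 alternatives other than leaving out a sample it was -0.75 to -0.61, with adjusted p-values of 0.272 to 0.440 (limma).

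BAK1 (ENSG00000030110, chromosome 6, 33540324 to 33548070, - strand), the effector that forms pores in the mitochondrial membrane, had 5.54, 5.65 and 5.51 log2 CPM under DMSO and 5.42, 5.33 and 5.36 after fostamatinib. The groups lay 0.085 apart. Its change of -0.20 in log2 units (SE 0.061, adjusted p = 8.05e-03, limma) was the smallest among the members that were called. It was no longer called without the second DMSO sample, with a log2 fold change of -0.15 (adjusted p = 0.0615, limma), against adjusted p-values of at most 0.0490 over the 9 alternatives that keep every sample. Antisense genes not listed here also overlap exons of BCL2L1 (ABALON), BMF (BMF-AS1) and BAK1 (GGNBP1). Whether these had too few reads or were absent from the annotation used for counting could not be told. Of the 50-base windows of the BAK1 transcript, 13.1% also occur in the pseudogene BAK1P1, whose reads amounted to at most 2.37% of those of BAK1 in any sample. The other effector, BAX, is named here after its values were seen. It had 5.99, 6.03 and 5.78 log2 CPM under DMSO and 6.07, 6.03 and 5.89 after fostamatinib, with a log2 fold change of 0.068 (95% confidence interval -0.058 to 0.19, adjusted p = 0.386, limma). The interval leaves room for a rise of up to 0.19 on the log2 scale.

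**Figure D2:**
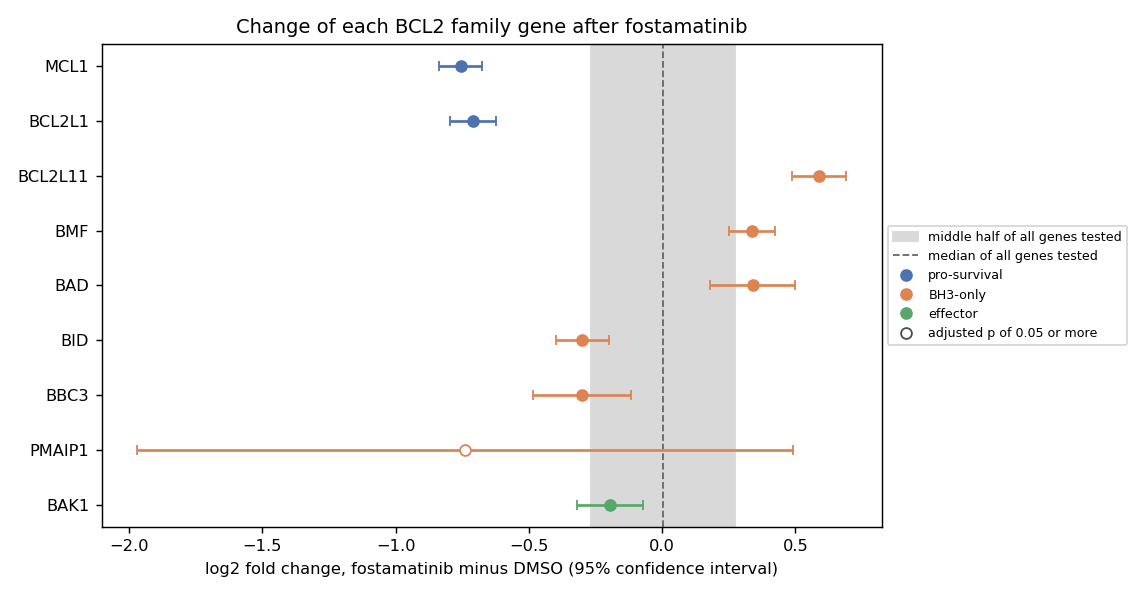
Log2 fold change of each of the 9 measured BCL2 family genes (x axis, fostamatinib minus DMSO) with its 95% confidence interval from limma. Filled points have an adjusted p-value under 0.05, the grey band holds the middle 50% of all 16305 genes and the dashed line is their median. Of the filled points, MCL1, BCL2L1 and BCL2L11 lie farthest from the band, and the interval of PMAIP1 runs from -1.97 to 0.49.

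A test against a fold change of 1.2 (limma's treat) separates the larger changes from the smaller ones. It called 3 of the 9 members, MCL1 and BCL2L1 lower and BCL2L11 higher, against 18.3% of all genes. The adjusted p-values were 7.09e-13, 4.61e-11 and 1.65e-06 (limma's treat). Those of the other 6 members lay between 0.184 for BMF and 1 for BAK1, so changes of less than 1.2-fold were not excluded by this test for BMF, BAD, BID, BBC3 and BAK1. For each of the 8 called members the 3 fostamatinib samples lay on 1 side of the 3 DMSO samples, which 54.1% of all genes also did. An exact permutation test of 3 against 3 samples cannot go below a two-sided p of 0.10.

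Levels of different genes were compared per kilobase of the reference transcript (MANE Select), as CPM per kilobase. In the DMSO samples the order was MCL1 with 117 ± 5.8 (SD, n = 3), BCL2L1 with 91.9 ± 2.8, BID with 56.9 ± 1.5 and BMF with 34.5 ± 1.5. BAD with 24.7 ± 2.7 and BAK1 with 21.9 ± 1.1 followed, and their samples overlapped. BCL2L11 with 17.5 ± 1.2, BBC3 with 9.84 ± 0.68 and PMAIP1 with 0.298 ± 0.24 came last. After fostamatinib MCL1 with 68.6 ± 2.3 and BCL2L1 with 55.7 ± 1.6 were still the highest 2, but BID with 45.9 ± 2.8 and BMF with 43.3 ± 0.98 now overlapped. BCL2L11, at 26.0 ± 0.35, stood above BAK1, at 19.0 ± 0.59, whereas under DMSO it stood below. This order depends on the length used. Over all annotated exons of each gene, BMF with 37.3 ± 0.85 stood above BCL2L1 with 34.2 ± 1.0 after fostamatinib, while BCL2L11 with 19.7 ± 0.26 again stood above BAK1 with 18.6 ± 0.58.

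The ratio of 2 genes within a sample does not depend on the scaling of that library. Per kilobase, the ratio of BCL2L11 to MCL1 was 0.139, 0.158 and 0.152 under DMSO and 0.389, 0.374 and 0.375 after fostamatinib. The means stood 2.54-fold apart, and no treated sample came near the DMSO range. The ratio of BCL2L11 to BCL2L1 was 0.180, 0.184 and 0.206 under DMSO and 0.449, 0.480 and 0.472 after fostamatinib, a 2.46-fold difference of the means. For BMF, the ratio to MCL1 moved from 0.296 ± 0.021 (SD, n = 3) to 0.631 ± 0.010 (SD, n = 3) and that to BCL2L1 from 0.376 ± 0.012 to 0.778 ± 0.032. BID and BBC3, which were themselves lower after fostamatinib, were higher relative to MCL1, by 1.38-fold and 1.37-fold. The ratio of BAK1 to MCL1 was 0.189 ± 0.019 under DMSO and 0.278 ± 0.017 after fostamatinib. These ratios restate the changes of the single genes, and no separate test was run on them.

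**Figure D3:**
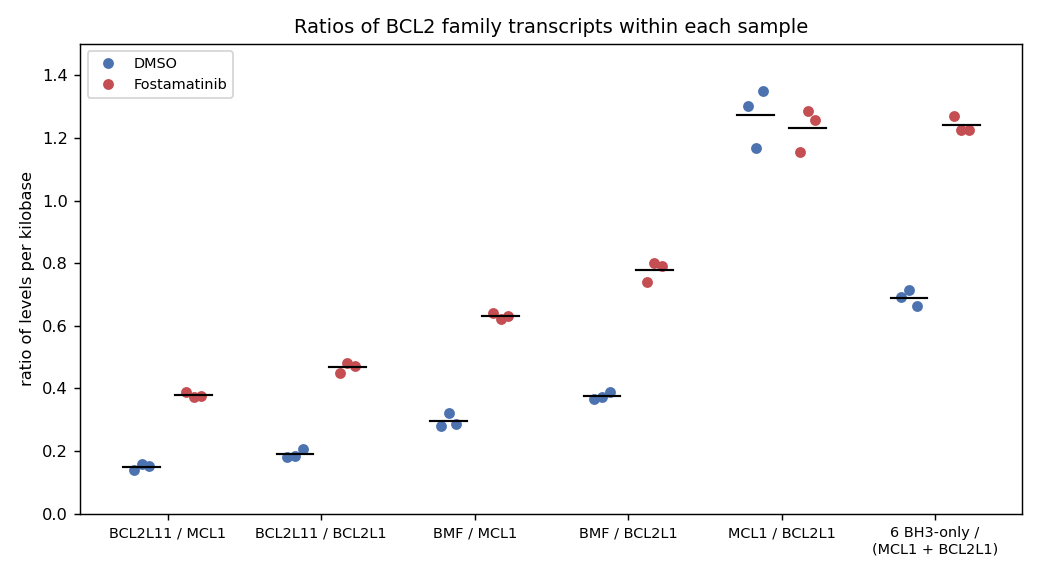
Ratios of BCL2 family transcripts within each sample, from levels per kilobase (y axis, starting at 0). Points are samples and lines are group means (n = 3). The ratios of BCL2L11 and BMF to MCL1 and BCL2L1 lie higher in every fostamatinib sample, while the ratio of MCL1 to BCL2L1 overlaps between the groups.

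Summed per kilobase, MCL1 and BCL2L1 together had 209 ± 4.0 CPM per kilobase (SD, n = 3) under DMSO and 124 ± 1.7 after fostamatinib. The 6 BH3-only genes together had 144 ± 2.8 and 154 ± 2.8, so their sum moved by 1.07-fold. The BH3-only sum relative to the pro-survival sum was 0.692, 0.713 and 0.663 under DMSO and 1.27, 1.23 and 1.23 after fostamatinib, with BCL2 not included. The make-up of the BH3-only sum shifted as well. BID made up 39.6% ± 1.4 (SD, n = 3) of it under DMSO and 29.8% ± 1.4 after fostamatinib. BMF went from 24.0% ± 0.99 to 28.1% ± 0.88 and BCL2L11 from 12.2% ± 0.97 to 16.9% ± 0.40. BAD went from 17.2% ± 1.6 to 20.1% ± 0.095 and BBC3 from 6.84% ± 0.38 to 5.14% ± 0.32, and for each of these 5 genes the samples of the groups did not overlap. These sums and shares describe RNA, and equal amounts of RNA need not give equal amounts of protein. They also depend on the length used, here that of the reference transcript. Over all annotated exons, BMF had 29.7 ± 1.3 CPM per kilobase and BID 28.0 ± 0.75 under DMSO, and their samples overlapped. After fostamatinib BMF, at 37.3 ± 0.85, stood above BID, at 22.6 ± 1.4. On those lengths the BH3-only sum relative to the pro-survival sum was 0.693 ± 0.023 under DMSO and 1.30 ± 0.019 after fostamatinib.

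**Figure D4:**
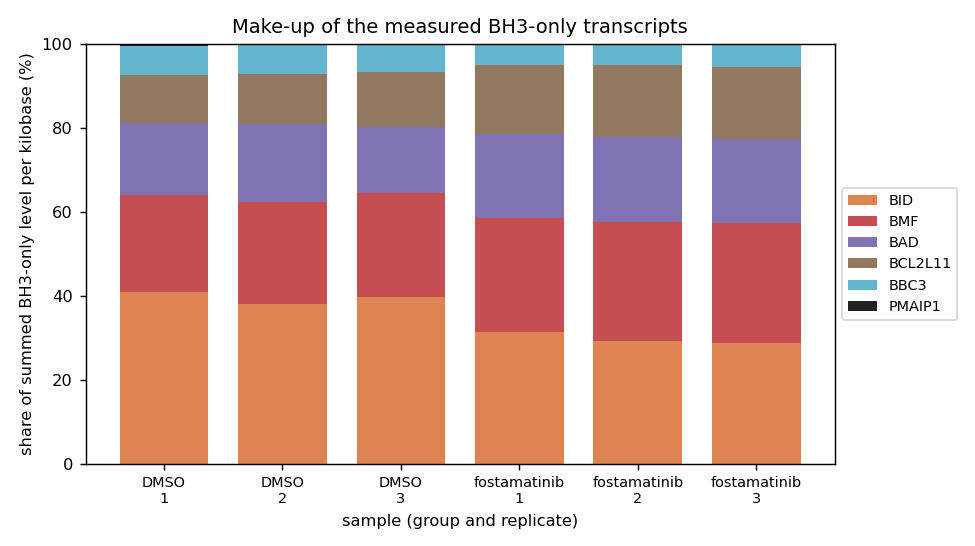
Share of each BH3-only gene in the summed BH3-only level per kilobase of the reference transcript (y axis, percent) in each of the 6 samples. BID takes a smaller share in each fostamatinib sample (28.8% to 31.4%) than in each DMSO sample (38.1% to 41.0%), and BCL2L11, BMF and BAD take larger ones.

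The promoters of BCL2L11 and BMF, the pair known to be restrained by ERK signalling, are shown since both genes rose. The sequences are RefSeq promoter entries of build GRCh38.p14, located by exact match in GRCh37, whose coordinates are given. That of BCL2L11 ends at the start of its reference transcript, and that of BMF where the first annotated exon begins. Capitals mark the matched letters of the motifs searched, apart from the GC box.
BCL2L11, chr2:111878241-111878490, + strand: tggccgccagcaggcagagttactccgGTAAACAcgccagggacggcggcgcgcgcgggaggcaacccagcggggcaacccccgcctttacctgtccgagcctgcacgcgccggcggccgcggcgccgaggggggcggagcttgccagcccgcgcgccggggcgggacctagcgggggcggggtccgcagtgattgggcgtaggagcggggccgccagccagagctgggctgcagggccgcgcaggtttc
BMF, chr15:40401094-40401330, - strand: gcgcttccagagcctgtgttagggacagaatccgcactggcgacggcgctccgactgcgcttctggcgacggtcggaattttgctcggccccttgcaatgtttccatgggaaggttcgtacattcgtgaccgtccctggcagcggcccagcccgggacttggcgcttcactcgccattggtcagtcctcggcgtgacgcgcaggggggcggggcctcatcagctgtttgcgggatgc
The 250 bases before the start were searched on both strands for the letters of 7 motifs in 9 of the 10 genes. BCL2 is among these 9, and MCL1 was not searched. For BCL2 and BCL2L1 all 250 bases lay over annotated exons, so transcribed sequence was searched there. Over annotated exons lay 134 of the bases of BAD, 99 of BBC3, 79 of BID, 17 of BAK1 and 13 of BMF. The forkhead (FOXO) letters GTAAACA were found in BCL2L11 alone, 223 bases before the start, and in 2.98% of all 35116 promoter entries. The AP-1 letters TGANTCA and the E-box CACGTG were found in BBC3 alone (6.57% and 6.34% of all entries); the entry of BBC3 starts 1468 bases from the start of its reference transcript. The GC box GGGCGG was found in 6 of the 9 genes, both BCL2L11 and BMF included, and in 42.6% of all entries. The ETS letters CCGGAAGT (3.42% of all entries), the cAMP response element TGACGTCA (1.65%) and the amino acid response letters TGATGCAA (0.772%) were found in none of the 9. A match is no evidence of binding.

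Genes that act around the BCL2 family were taken from lists written with earlier results of these data known, and the median log2 fold change of all genes was 0.0015. The counts called in each list stand against 23.3% of all genes called higher and 24.5% called lower. Of the 13 other BCL2 family genes, 10 were listed, with 3 called higher and 4 lower and a median log2 fold change of -0.072. BOK, an effector-like member, fell by 0.43 in log2 units (SE 0.087, adjusted p = 9.90e-05, limma). The pro-survival gene BCL2L2, which encodes BCL-W, fell by 0.24 (adjusted p = 3.62e-03, limma). The mitophagy receptors BNIP3L and BNIP3 fell by 0.29 and 0.21 (adjusted p = 2.79e-05 and 1.94e-04, limma). The 1 member of this list that was called with a change over 2-fold was BCL2L14, named after its values were seen. It had 2, 1 and 0 reads under DMSO and 6, 2 and 6 after fostamatinib (adjusted p = 0.0428, limma). Only the fostamatinib group met the authors' minimum of 5 reads in 2 samples, so BCL2L14 was tested only through the group where it was high. It is 1 of the 3 called higher. Its call was lost without the mean-variance trend of the fit (adjusted p = 0.0855, limma). The call was also lost without DMSO replicate 3, fostamatinib replicate 1 or fostamatinib replicate 3 (adjusted p = 0.154 to 0.178, limma).

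Downstream of the mitochondrial step, all 14 genes of the apoptosome and the caspases were listed, with 2 higher, 6 lower and 6 not called (median -0.14). CYCS, which encodes cytochrome c, the protein released when the membrane opens, fell most, by 0.84 in log2 units (SE 0.048, adjusted p = 9.37e-17, limma). DFFA, the inhibitor of the caspase-activated nuclease, fell by 0.34 and CASP2, an initiator caspase, by 0.27 (adjusted p = 1.37e-08 and 6.26e-04, limma). CASP9, the caspase of the apoptosome, rose by 0.29 (adjusted p = 7.51e-03, limma). Of the 6 caspase inhibitors, 2 were higher, 1 was lower and 3 were not called (median -0.016). BIRC6 rose by 0.30 (adjusted p = 5.15e-07, limma) and BIRC3, a target of NF-kB, fell by 0.29 (adjusted p = 3.85e-06, limma). BIRC5, which encodes survivin, rose by 0.14 (adjusted p = 0.0281, limma), without separation of the groups, and was not called without the trend (adjusted p = 0.163, limma) or without DMSO replicate 3, fostamatinib replicate 1 or fostamatinib replicate 2 (adjusted p = 0.0951 to 0.140, limma).

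Of the 6 genes for death receptors, adaptors and a death ligand, 5 were listed and all 5 were called, 3 higher and 2 lower (median 0.24). Among all genes, 47.8% were called. The TNF receptor gene TNFRSF1A fell by 0.53 (adjusted p = 6.22e-11, limma). TNFSF10, which encodes the death ligand TRAIL, rose by 0.43 at 72 to 100 reads per sample (adjusted p = 9.55e-03, limma). RIPK1 rose by 0.24 (adjusted p = 5.21e-04, limma). TRADD rose by 0.28 (adjusted p = 9.57e-03, limma) and was not called without the trend (adjusted p = 0.0599, limma), without DMSO replicate 3 or without fostamatinib replicate 3 (adjusted p = 0.0725 and 0.0590, limma). Among 13 partners that bind, anchor or degrade BCL2 family proteins, 6 were higher, 4 lower and 3 not called (median 0.015). FBXW7, which targets MCL1 protein for degradation, rose by 0.48 (adjusted p = 8.06e-07, limma), and USP9X, which removes ubiquitin from it, by 0.21 (adjusted p = 4.11e-05, limma). VDAC2, a partner of BAK in the outer membrane, fell by 0.33 (adjusted p = 2.05e-07, limma), and YWHAB, one of the 14-3-3 proteins that hold phosphorylated BAD, by 0.25 (adjusted p = 3.20e-07, limma).

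Of the transcriptional regulators of BH3-only genes, 2 of 11 listed genes were higher and 9 lower (median -0.65), against 23.3% and 24.5% of all genes. E2F1, which can activate BH3-only genes, fell by 1.47 in log2 units (SE 0.071, adjusted p = 1.05e-18, limma). The stress factor ATF3 fell by 1.28 and TRIB3, a pseudokinase gene of the same stress response and not itself a transcription factor, by 1.33 (adjusted p = 1.37e-16 and 1.79e-22, limma). FOXO1, a forkhead factor known to act on BCL2L11, rose by 0.88 (SE 0.077, adjusted p = 8.56e-12, limma), from 231, 271 and 267 reads to 414, 455 and 458. FOXO3, another forkhead factor known to act on BCL2L11 and named after its values were seen, fell by 0.44 (SE 0.054, adjusted p = 2.02e-08, limma), opposite to FOXO1. The forkhead gene FOXO4, also named after its values were seen, rose by 0.82 (SE 0.20, adjusted p = 6.46e-04, limma). Of 15 listed genes that report ERK output, 13 fell and 1 rose, with a median log2 fold change of -1.40. Of all genes, 24.5% were called lower and 23.3% higher. The 1 that rose was DUSP4, by 1.95 (adjusted p = 1.44e-20, limma), and EGR1 was not called (adjusted p = 0.645, limma). Both are named after their values were seen. The 4 that changed most were the ETS factors ETV5 (-3.76) and ETV4 (-2.90), the feedback inhibitor SPRY4 (-3.26) and the ERK phosphatase DUSP6 (-3.20), in log2 units, with adjusted p-values of at most 4.97e-10 (limma). Whether any of these genes set the levels of the BCL2 family members was not tested.

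**Figure D5:**
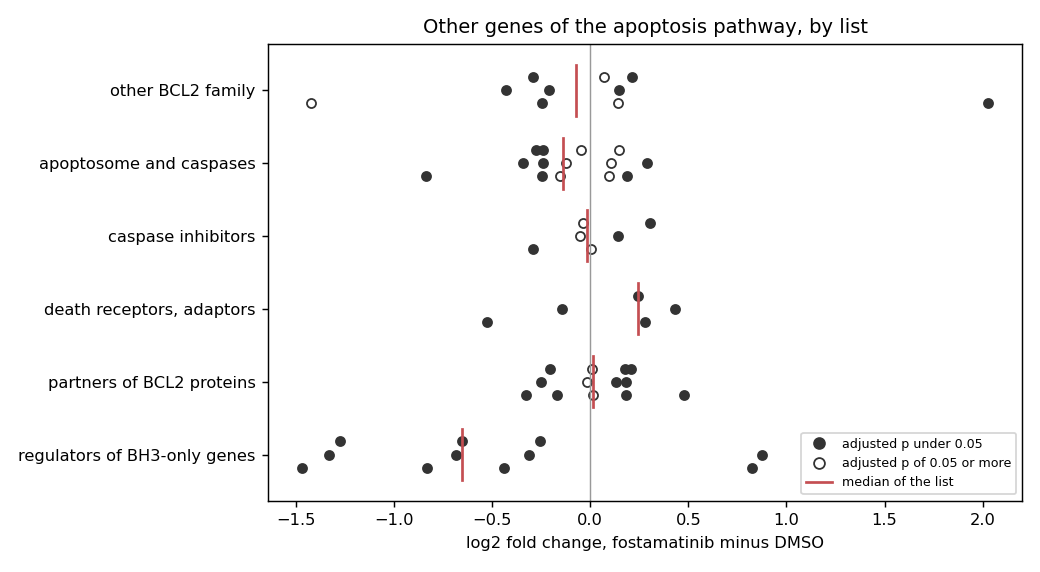
Log2 fold changes (x axis, fostamatinib minus DMSO) of the genes of 6 lists around the BCL2 family. Each point is a gene, filled where the adjusted p-value was under 0.05, vertical position within a list has no meaning, and red lines are medians. The medians lie between -0.14 and 0.24 apart from that of the regulators of BH3-only genes, at -0.65.

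Reads on the listed genes numbered 13303451 to 15272737 per sample. The labelled liver origin was checked with 8 hepatocyte markers, which were all listed and were all called higher after fostamatinib, against 23.3% of all genes. Of 10 markers of blood, vessel, stromal and squamous cells, 7 were not listed. The other 3 summed to 178 to 201 reads under DMSO and 222 to 259 after fostamatinib. The 26 mitochondrially encoded genes took 6.15% to 6.67% of the reads under DMSO and 8.16% to 8.40% after fostamatinib. The part of this shift in the changes of single genes was not tested.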

How the data were processed

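The deposited values are log2 CPM per gene, 1 sample per file. Per the study's methods, the authors aligned to hg19 (HISAT) and counted per GENCODE gene (featureCounts). They kept genes that had 5 or more reads in at least 2 samples of 1 group or more, and scaled by TMM; each log2 value has 0.5 added to the count. Tool versions are not given in the sources used here. Every value returned a read number within 0.001 of a whole number, and these reads gave depth, ratios and other scalings. A gene listed repeatedly was used once (6 repeated rows dropped). Groups came from the sample titles. The 16305 genes were fitted with limma 3.58.1 (R 4.3.3; lmFit, eBayes with trend, Benjamini-Hochberg) and the script was tested on simulated data; a gene was called at an adjusted p under 0.05. Coordinates, exons and coding sequences are from GENCODE version 44 mapped to GRCh37, and promoters are from RefSeq. The authors counted on an earlier GENCODE version, so exon lengths and overlaps given here may differ from those counted. The members and lists were chosen with earlier results of these data known. All members are named, and from each other list up to 4 called genes with the largest absolute change and a mean of at least 50 reads in 1 group. Other settings were eBayes without trend, limma-voom on the recovered reads, median-ratio, library-size and upper-quartile scaling, 2 added to each count, filters of 5 reads in 2 samples in both groups and of 10 reads in every sample, a replicate block, treat, and leaving out each sample. Replicates differed by 1.65 to 3.74 times counting variance, so none were counted as 1.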

Additional observations from a re-analysis of the deposited data

How the results depend on the processing

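Over the 9 alternatives other than treat and the omission of a sample, 3 members were called higher and 5 lower in each, and the count over all genes lay between 6382 (eBayes without a trend) and 7977 (replicate block), against 7794. With each sample left out in turn, 3 were again called higher and 5 lower, and 6958 to 7480 genes in all. Without the second DMSO sample BAK1 dropped out and PMAIP1 came in, so these 5 were not the same genes. That sample had the fewest PMAIP1 reads, and PMAIP1 was tested only through the DMSO group, where its reads were higher. Its call in this fit is therefore no support for a fall. Over the fits that leave out a sample, the log2 fold change of BAK1 lay between -0.22 and -0.15 and that of PMAIP1 between -1.49 and -0.14. With treat against a fold change of 1.2, 1 member was called higher and 2 lower, by construction of the test. The log2 fold change of BAX lay between -0.011 (without the third DMSO sample) and 0.12. Scaling by median ratios, library size or upper quartile moved the median of all genes to at most 0.037 on the log2 scale and changed the direction of no member. PMAIP1 was not tested with the filter passed in both groups or with at least 10 reads in every sample.

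Same-numbered samples were not treated as pairs, and the labels give only their numbers. The correlations of their deviations from the group means were 0.037, -0.021 and 0.037, and not every sample correlated best with its own number. With 3 samples per group these correlations cannot exclude a pairing. With the replicate number as a block, 3 members were called higher, 5 lower and 7977 genes in all, and no call of a member changed. Depth limited PMAIP1 most, with at most 14 reads in a sample.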
